A study of Mus musculus with 2 samples.

Results

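Chemokines and their receptors were described in heart tissue as 52 genes of the 19465 in the deposited count tables. The members were all symbols that begin with Ccl, Cxcl or Cx3c, Xcl1 and Xcr1, the numbered CC and CXC receptors, and Ackr1, Ackr2 and Ackr3. This naming rule used no measured value, but it was set with earlier results of these data known. The members comprised 30 ligands and 22 receptors. Of these, 37 reached 20 UMIs when both sections were added, and 15 did not. A UMI, or unique molecular identifier, marks 1 captured probe molecule.

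Visium CytAssist, in which probe pairs bound to RNA in formalin-fixed tissue are moved to a slide of barcoded spots, was run on 1 heart section of a control α-MHC-MerCreMer+/− mouse and 1 of a TOP2B transgenic α-MHC-MerCreMer+/− hTOP2B LSL/− mouse. Both mice carried the tamoxifen-inducible Cre driven by the cardiomyocyte α-MHC promoter, and both had a single intraperitoneal dose of 80 mg/kg of tamoxifen. In the transgenic mouse, Cre removes a stop cassette in front of a CAG-driven human TOP2B cDNA at the Rosa26 locus, so that the transgene is switched on in cardiomyocytes. Mice given this dose were 6 weeks old, and the time from tamoxifen to these sections is not given in the sources used here.

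With 1 section per genotype, genotype, mouse and section cannot be told apart. No test between genotypes was possible, and the 95% intervals below are exact and cover counting error only. The control section had 14376300 UMIs over 1256 spots and the transgenic section 12953389 UMIs over 924 spots. Both sections used the same kind of array, and 725 spot barcodes occurred in both. Each spot covers a patch of tissue with several cells or parts of cells, and spots were not treated as replicates. Mouse Top2b was counted at 106 and 102 CPM, which is UMIs for each 1000000 UMIs of the section, in the control and transgenic section, which gives a log2 ratio of -0.07 (-0.17 to 0.04). The transgene is a human cDNA and the probes were counted against mouse genes, so this value does not check the genotype labels.

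Chemokines are small secreted proteins that bind G protein-coupled receptors on leukocytes and steer where these cells go. In the heart, CXCL12 acting on CXCR4 is known for keeping progenitor and immune cells in place and for vessel growth. CCR2 marks monocytes and the macrophages that derive from them, and its ligands draw these cells out of the blood. Atypical receptors such as ACKR2 and ACKR3 take up chemokines without classical G protein signaling, and so limit how much ligand other receptors see.

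All 52 genes together made up 0.0306% of the control UMIs and 0.0400% of the transgenic UMIs. Summed over the 30 ligands, the level was 199 CPM in the control section and 268 CPM in the transgenic one. Summed over the 22 receptors, it was 107 CPM and 132 CPM. Only 12 members reached 100 UMIs in either section.

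As a reference for the lowest levels, chosen after the values were seen, the 970 olfactory receptor genes in the tables had a median of 0.556 CPM in the control section and 0.463 CPM in the transgenic one. Their 95th percentile was 1.11 CPM and 1.00 CPM. Of the 52 members, 26 lay above that percentile in the control and 30 in the transgenic section. Values near 1 CPM are therefore at the level that genes of another tissue also gave.

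Of the 37 members with at least 20 UMIs, 9 were higher in the transgenic section by at least 2-fold, or 24.3% of them, against 13.7% of the 15236 genes with at least 20 UMIs. A further 4 members, or 10.8%, were at least 2-fold lower, against 5.61% of all these genes. The 15236 genes were not matched to the members for UMI count, and the part of low counts in these shares was not tested. Among the 9 higher members, Ccl17 and Cxcr6 had 6 and 11 control UMIs. The median log2 ratio was 0.16 over the members and 0.20 over all genes, and 25 of the 37 members, or 67.6%, lay above 0, as did 63.2% of all genes. Of 16 receptors counted, 5 were at least 2-fold higher and 0 at least 2-fold lower, with a median log2 ratio of 0.50. Of 21 ligands, 4 were at least 2-fold higher and 4 at least 2-fold lower, with a median of 0.15; the 2 groups were not tested against each other. In 17 of the 37 the interval of the log2 ratio included 0, and the share over all genes is not given here.

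**Figure D1:**
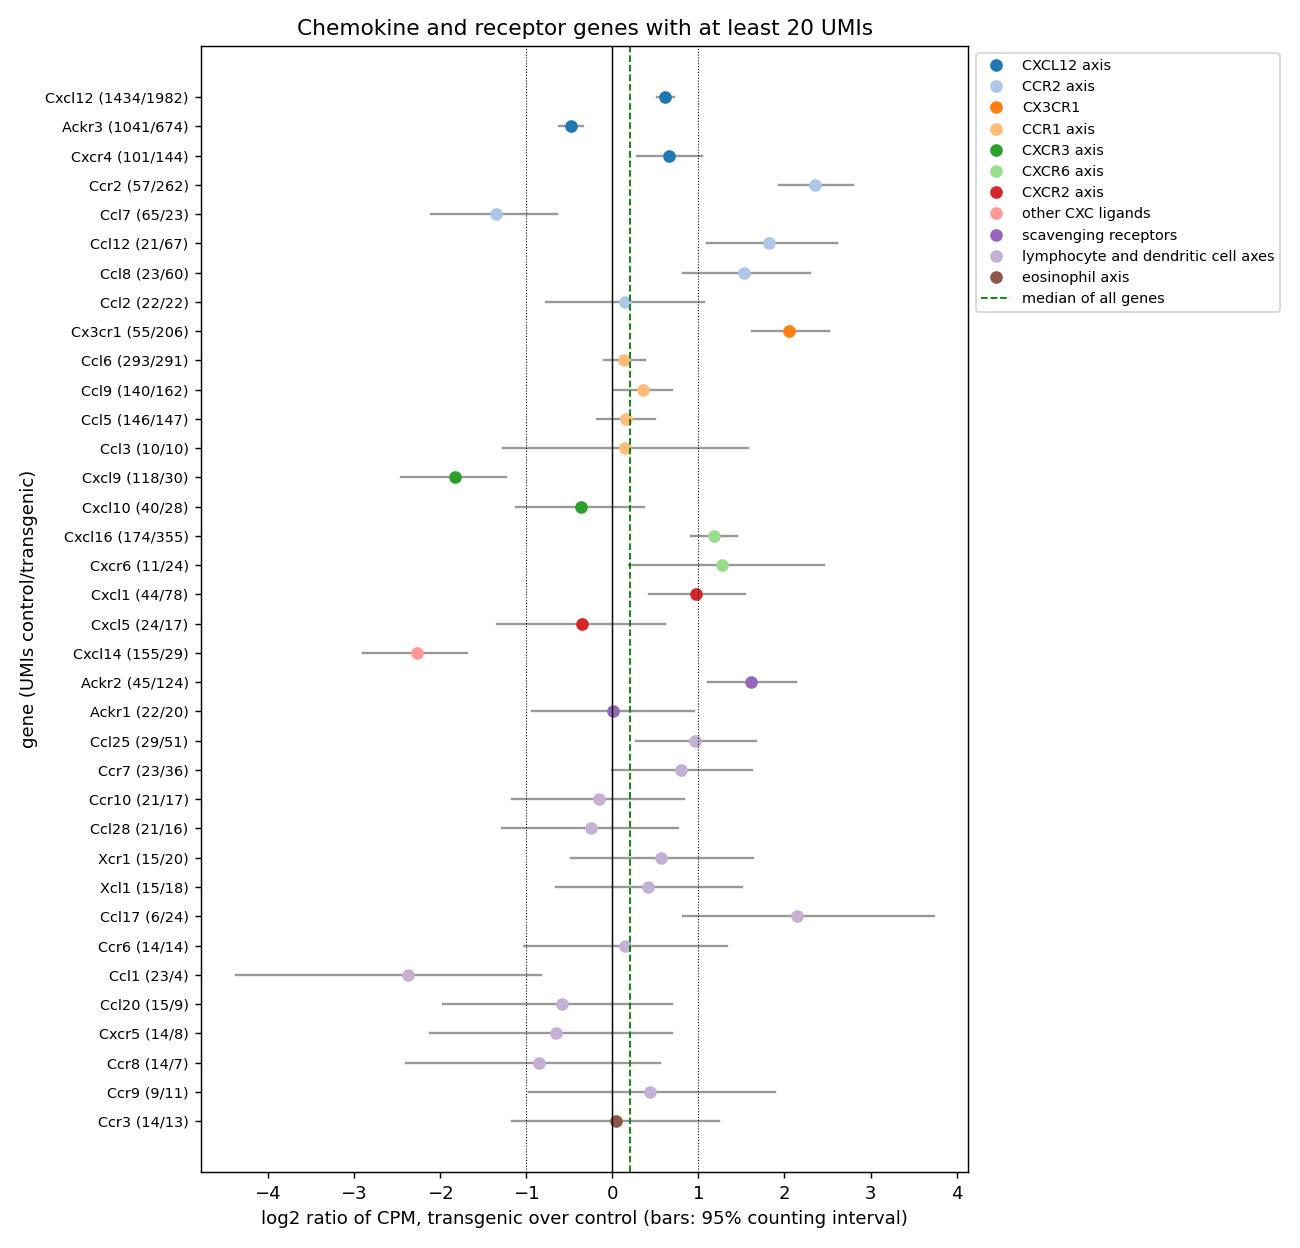
Log2 ratio of CPM, transgenic over control, for 36 of the 37 genes with at least 20 UMIs, grouped by receptor axis (colors), with 95% counting intervals (bars), 2-fold lines (dotted) and the median of all genes, 0.20 (dashed). Ccr2 (2.35) and Cx3cr1 (2.06) lie far to the right, and Cxcl14 (-2.27) and Cxcl9 (-1.83) far to the left.

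To see whether a ratio was carried by 1 region, the spots of a section were divided into 4 quadrants by their median array row and column. In 8 of the 37 members every transgenic quadrant lay above every control quadrant, or 21.6%, against 30.3% of all genes. In 4 members, or 10.8%, every transgenic quadrant lay below, against 13.1% of all genes. The higher ones included Cxcl12, Cxcl16, Ccr2, Cx3cr1, Ackr2, Cxcl1 and Ccl17, and the 4 lower ones were Ackr3, Cxcl14, Cxcl9 and Ccl1. Both shares were below those of all genes, which were not matched to the members for UMI count.

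**Figure D2:**
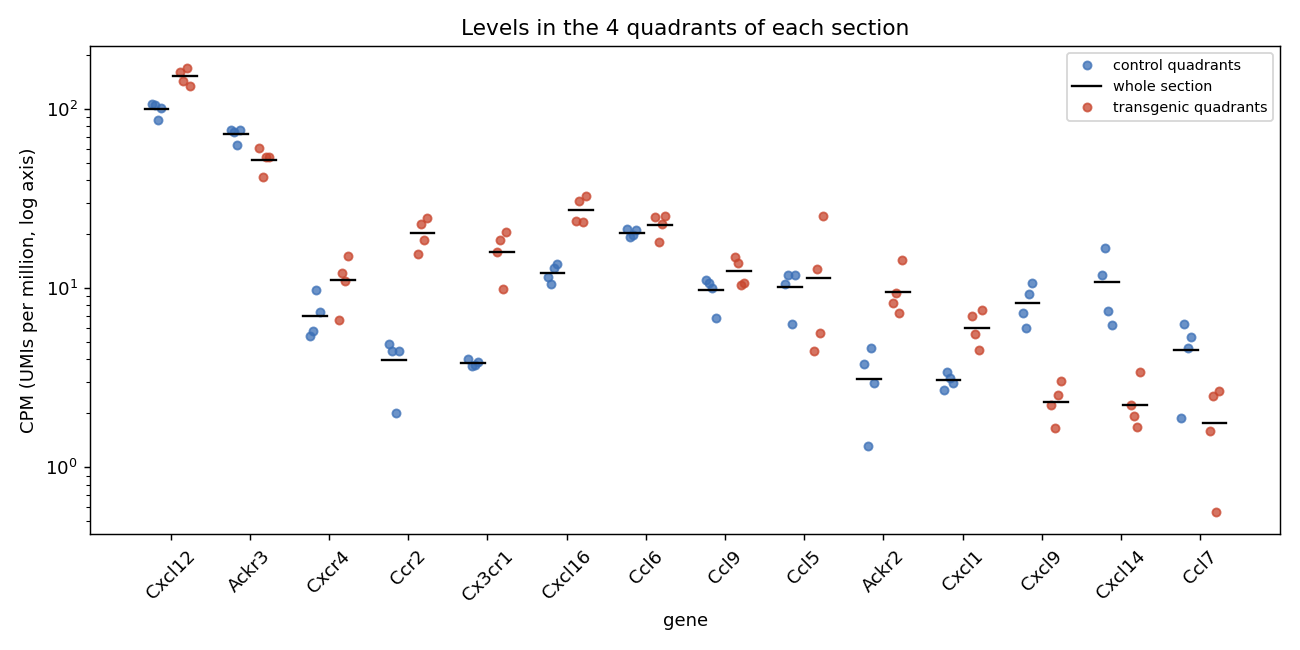
CPM (log axis) of 14 members in the 4 quadrants of each section (points) and in the whole section (bars). Quadrants of Ccr2 ranged from 2.02 to 4.85 CPM in the control and from 15.6 to 24.7 CPM in the transgenic section, while those of Ccl5 spread from 4.45 to 25.4 CPM within the transgenic section alone.

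The tissue make-up that these sections show moved with the genotype, and its part in the results was not tested. The 13 macrophage markers counted here summed to 346 CPM in the control section and 667 CPM in the transgenic one, with quadrants of 323 to 368 CPM and of 572 to 739 CPM. Of these 13, 5 were at least 2-fold higher and 1, Timd4, at least 2-fold lower, against 13.7% and 5.61% of all genes. Cardiomyocyte markers were at 0.59 times the control level, fibroblast markers at 1.56 times and erythroid markers at 9.52 times. The 7 cardiomyocyte markers did not move together. Tnnt2 was at 1.12 times the control level, Tnnc1 at 0.87, Ryr2 at 0.71 and Ttn at 0.66. Pln was at 0.49, Myh6 at 0.31 and Tnni3 at 0.26. The same list sets the cardiomyocyte-rich spots used below. The 8 endothelial markers were at 888 CPM and 899 CPM. T cell markers were sparse, at 8.56 CPM and 8.80 CPM over 7 genes. No marker of these lists had a count of 0 in either section. In such sections, more cells of a type and more RNA per cell cannot be told apart.

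Cxcl12, the ligand that CXCR4 and ACKR3 share, had 1434 UMIs in the control and 1982 in the transgenic section, or 99.7 CPM (94.7 to 105) and 153 CPM (146 to 160). It was thus 1.53-fold higher (1.43 to 1.64), with quadrants of 86.4 to 106 CPM in the control and 134 to 169 CPM in the transgenic section. A Cxcl12 UMI was present in 65.1% of control spots (62.4 to 67.8) and 82.3% of transgenic spots (79.6 to 84.7). With every spot thinned to 8134 UMIs, the expected shares were 54.6% and 71.3%, the same order at equal depth. Spots below this depth, 140 in the control and 78 in the transgenic section, were left out there.

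Ackr3, the scavenging receptor for CXCL12, was lower in the transgenic section. It had 1041 UMIs in the control and 674 in the transgenic section, or 72.4 CPM (68.1 to 76.9) and 52.0 CPM (48.2 to 56.1), and was 1.39-fold lower (1.26 to 1.54). Its highest transgenic quadrant, at 60.4 CPM, was below its lowest control quadrant, at 63.1 CPM.

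Cxcr4, the signaling receptor, was at 7.03 CPM (5.72 to 8.54) in the control section and 11.1 CPM (9.38 to 13.1) in the transgenic one. It was 1.58-fold higher (1.22 to 2.06), and its quadrants overlapped. On the CPM scale the 2 receptors of CXCL12 had ratios on opposite sides of 1, with intervals that did not meet. Per macrophage-marker UMI the ratio of Cxcr4 was 0.821 (0.632 to 1.07), on the other side of 1.

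The ratios of Cxcl12 and Ackr3 were also taken per UMI of the endothelial markers, which does not depend on the section total. There were 11.2 Cxcl12 UMIs per 100 endothelial-marker UMIs in the control and 17.0 in the transgenic section, 1.52-fold more (1.42 to 1.62). For Ackr3 there were 8.15 and 5.79, or 1.41-fold fewer. Both values lay close to those on the CPM scale, as they had to with endothelial sums of 888 CPM and 899 CPM. Cxcl12 was not scaled to the fibroblast markers, whose sum was 1.56-fold higher in the transgenic section. The sum of the endothelial markers differed little between the sections, but single markers did not move together: Vwf was 5.59-fold higher and Pecam1 1.38-fold higher in the transgenic section, and Kdr was 1.90-fold lower and Tie1 1.34-fold lower.

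Across the tissue, Cxcl12 was counted widely. The deposited Moran's I, a score of how alike neighboring spots are, was 0.043 for Cxcl12 in the control and 0.147 in the transgenic section, at the 97.0th and 91.9th percentile of the genes with at least 20 UMIs there. These scores are not compared between sections, since the median over genes was itself 0.0024 in the control and 0.020 in the transgenic section. In the control, Cxcl12 was 1.25-fold higher (1.11 to 1.40) in the 25% of spots richest in fibroblast markers than in the other spots. In the transgenic section it was 1.27-fold higher (1.15 to 1.40) in the 25% richest in cardiomyocyte markers, and fibroblast-rich spots gave a log2 difference of -0.14.

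In the transgenic section Ackr3 was 1.60-fold higher (1.36 to 1.88) in endothelial-rich spots, at 72.7 CPM against 45.5 CPM. In the control, endothelial-rich spots differed by 0.05 on the log2 scale. Cxcr4 was found in 7.58% of control spots with a Cxcl12 UMI and 7.76% of those without. In the transgenic section these shares were 13.9% and 14.0%, although spots with Cxcl12 were deeper, with a median of 14985 UMIs against 9932.

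The CCR2 axis held the largest relative difference upward among members with at least 100 UMIs in either section. Ccr2, the receptor of inflammatory monocytes, had 57 UMIs in the control and 262 in the transgenic section. Its level was 3.96 CPM (3.0 to 5.14) and 20.2 CPM (17.9 to 22.8), 5.10-fold higher (3.82 to 6.92), and the quadrants of the sections did not overlap. It was seen in 4.38% (3.32 to 5.66) of control spots and 22.5% (19.9 to 25.3) of transgenic spots, or 2.93% and 14.1% at equal depth.

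The difference in Ccr2 was larger than that in the macrophage markers. Per 100 macrophage-marker UMIs there were 1.14 Ccr2 UMIs in the control and 3.03 in the transgenic section, 2.65-fold more (1.98 to 3.59). Of 5 monocyte markers with at least 20 UMIs, 4 had a log2 ratio above 0, with a median of 0.36. The summed level of the list, all its markers included, was 2.38-fold higher. Ace alone held 443 of the list's 2266 UMIs in the control and 3564 of 4855 in the transgenic section. The higher sum rests on Ace. On the log2 scale Ace, which endothelial cells also make, was at 3.16, Spn at 0.41, F13a1 at 0.36 and Plac8 at 0.34, and Nr4a1 was at -0.93.

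Within the transgenic section, Ccr2 was uneven. It was 1.87-fold higher (1.44 to 2.41) in the macrophage-rich 25% of spots, at 30.8 CPM against 16.5 CPM. It was also higher in mural-rich (1.54-fold) and mesothelial-rich spots (1.59-fold). In the cardiomyocyte-rich 25% it was 2.87-fold lower, at 8.41 CPM against 24.1 CPM. Spots at the tissue edge, those with fewer than 6 neighbors, had 27.5 CPM and interior spots 17.4 CPM, a log2 difference of 0.66 (0.28 to 1.03). The control showed the same order, with 6.95 CPM at the edge and 3.48 CPM inside. Edge spots held 28.1% of the transgenic UMIs and 14.0% of the control UMIs, and with edge spots left out the log2 ratio between sections stayed within its interval.

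The ligands of CCR2 had ratios on both sides of 1. Ccl12, a mouse ligand of CCR2 with monocyte-attracting activity, had 21 UMIs in the control and 67 in the transgenic section, or 1.46 CPM (0.904 to 2.23) and 5.17 CPM (4.01 to 6.57), 3.54-fold higher (2.14 to 6.09). Ccl8, a monocyte attractant of the same gene cluster, had 23 and 60 UMIs and was 2.90-fold higher (1.76 to 4.91). It was grouped with these genes but is not counted as a CCR2 ligand here. Per macrophage-marker UMI, Ccl12 was 1.84-fold higher (1.11 to 3.16), and Ccl8 was at 1.5 times the control value with an interval of 0.915 to 2.55. Ccl7, which also binds CCR2, had 65 and 23 UMIs and was 2.55-fold lower (1.56 to 4.29).

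Ccl2, the best known CCR2 ligand, had 22 UMIs in each section. Its ratio of 1.11 had an interval from 0.586 to 2.10, so a difference of about that size in either direction could not be seen at this depth. Ccl2, Ccl7, Ccl8 and Ccl12 all had overlapping quadrants. In the transgenic section, 18.3% of the 60 spots with Ccl12 had a Ccr2 UMI, against 22.8% of the 864 spots without.

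Cx3cr1, the fractalkine receptor of patrolling monocytes and many resident macrophages, was the second receptor with a large difference. It had 55 UMIs in the control and 206 in the transgenic section, or 3.83 CPM (2.88 to 4.98) and 15.9 CPM (13.8 to 18.2). It was 4.16-fold higher (3.07 to 5.70), and its quadrants ran from 3.67 to 4.04 CPM and from 9.83 to 20.5 CPM. Per 100 macrophage-marker UMIs there were 1.10 and 2.38 Cx3cr1 UMIs, 2.16-fold more (1.60 to 2.96). Its ligand Cx3cl1 was not analysed here.

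Cx3cr1 differed less between the edge and the interior of the transgenic section than Ccr2 did, and the difference between the genes was not tested. Its edge and interior levels were 16.2 CPM and 15.8 CPM, and its level in macrophage-rich spots differed by 0.22 on the log2 scale with an interval that included 0. Both genes were lower in cardiomyocyte-rich spots, Cx3cr1 by 1.61-fold. Of the 208 spots with Ccr2, 22.6% also had Cx3cr1, against 19.0% of the 716 without; spots with Ccr2 had a median of 15686 UMIs and the others 14226.

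**Figure D3:**
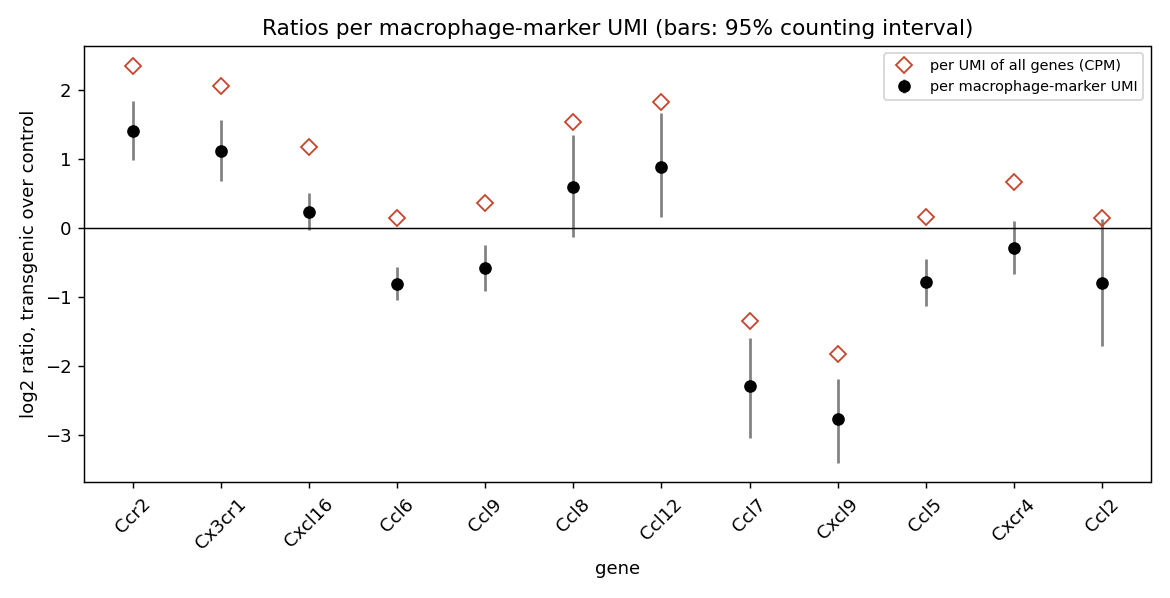
Log2 ratio, transgenic over control, of 12 members per macrophage-marker UMI (filled circles, bars are 95% counting intervals of the member's UMIs) and per UMI of all genes (open diamonds). Ccr2 (1.40), Cx3cr1 (1.11) and Ccl12 (0.88) stay above 0 on both scales, while Ccl6, Ccl9, Ccl5, Cxcr4 and Ccl2 turn from above to below 0, the last 2 with intervals that include 0.

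The ligands of CCR1 showed little difference in CPM. Ccl6, a CC chemokine of macrophages and other myeloid cells, had 293 UMIs in the control and 291 in the transgenic section, at 20.4 CPM (18.1 to 22.9) and 22.5 CPM. Ccl9, a relative of Ccl6 in the same cluster, was at 9.74 CPM (8.19 to 11.5) and 12.5 CPM (10.7 to 14.6), 1.28-fold higher (1.02 to 1.62). The quadrants of both genes overlapped between sections.

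Set against the macrophage markers, both were lower. Per 100 macrophage-marker UMIs, Ccl6 was at 5.88 in the control and 3.37 in the transgenic section, 1.75-fold fewer. Ccl9 was at 2.81 and 1.87, or 1.5-fold fewer, and both intervals excluded an equal ratio. Of the members with at least 100 UMIs in both sections, only Ccl9 was higher in macrophage-rich spots of both with intervals that excluded an equal level, by 1.64-fold (1.13 to 2.35) in the control and 1.5-fold (1.06 to 2.09) in the transgenic section. For Ccl6 the log2 difference was 0.17 in the control and 0.27 in the transgenic section, with intervals that included 0.

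Ccl3, an acute macrophage chemokine, had 10 UMIs in each section, and Ccl4 and Ccr1 had fewer than 20 UMIs in all.

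Ccl5, made by T cells, NK cells and activated myeloid cells, had the highest Moran's I of the members with at least 20 UMIs in the transgenic section. Its totals were 146 UMIs in the control and 147 in the transgenic section, or 10.2 CPM (8.58 to 11.9) and 11.3 CPM (9.59 to 13.3). The transgenic quadrants ranged from 4.45 to 25.4 CPM and those of the control from 6.34 to 11.8 CPM. Its Moran's I was 0.167 in the transgenic section, at the 92.9th percentile of genes, and 0.021 in the control, at the 90.4th.

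In the transgenic section, 28 spots with at least 2 Ccl5 UMIs held 55.1% of all its UMIs, with up to 9 in 1 spot, and the largest group of such neighboring spots had 6 spots. In the control, 23 such spots held 34.2%, with at most 3 UMIs in a spot. Macrophage-rich spots of the transgenic section had 21.3 CPM of Ccl5 against 7.83 CPM elsewhere, 2.72-fold higher (1.94 to 3.81). In the control this difference was 0.20 on the log2 scale with an interval that included 0. Transgenic Ccl5 was also higher in mural-rich (1.71-fold), mesothelial-rich (1.54-fold) and fibroblast-rich spots (1.45-fold). In cardiomyocyte-rich spots of that section it was 3.40-fold lower.

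The 28 transgenic spots also held other members. Ccr7, the homing receptor of T cells and mature dendritic cells, had 9 of its 36 UMIs there, 10.2-fold more per UMI than in the other spots (4.22 to 22.4). Xcl1, the lymphotactin of NK and CD8 T cells, had 6 of its 18 UMIs there, 15.3-fold more (4.71 to 44.1). Besides Ccl5, only Ccr7, Xcl1, Ccr2, Cxcl16, Cxcl12 and Cxcr3 were looked at in these spots, and Ccr7 and Xcl1 were the highest of these. Ccr2 was 1.86-fold higher (1.02 to 3.13) and Cxcl16 1.83-fold higher (1.10 to 2.87). Cxcl12 was at 0.956 times the level of the other spots (0.726 to 1.24). Cxcr3 had 0 UMIs, with an interval that reaches up to 13.7-fold the level of the other spots.

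The cell type markers in these spots had lower ratios than Ccr7 and Xcl1. The interval of the NK cell markers overlapped those of both genes, and the difference was not tested. NK cell markers were 2.86-fold higher (1.11 to 6.18), B cell markers 2.07-fold (1.08 to 3.63) and macrophage markers 1.39-fold (1.25 to 1.54). T cell markers gave 7 UMIs and a ratio of 2.00 (0.786 to 4.27). In the 23 control spots NK cell markers were 3.91-fold higher (2.09 to 6.75), and Ccr7 had 1 UMI. These spots were picked for their Ccl5 counts, so the level of Ccl5 itself in them is no result.

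Of the 2 CXCR3 ligands counted, 1 was lower in the transgenic section. Cxcl9, an interferon-γ-induced attractant of T cells, had 118 UMIs in the control and 30 in the transgenic section, or 8.21 CPM (6.79 to 9.83) and 2.32 CPM (1.56 to 3.31). It was 3.54-fold lower (2.36 to 5.48), and its highest transgenic quadrant, 3.04 CPM, was below its lowest control quadrant, 6.02 CPM. Per 100 macrophage-marker UMIs there were 2.37 and 0.347 Cxcl9 UMIs, 6.83-fold fewer. The macrophage markers were themselves at 1.93 times the control level, which enlarges this value. In the control, Cxcl9 was at 8.66 CPM in macrophage-rich spots and 8.06 CPM elsewhere, a log2 difference of 0.10 (-0.55 to 0.72).

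Cxcl10, induced by interferons and NF-κB and binding the same receptor, had 40 and 28 UMIs. Its levels were 2.78 CPM (1.99 to 3.79) and 2.16 CPM (1.44 to 3.12), a ratio of 0.777 with an interval of 0.462 to 1.29 that includes an equal level. Their receptor Cxcr3 had fewer than 20 UMIs in all, with 9 in the control and 10 in the transgenic section.

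Much of the control's Cxcl10 lay in 1 place. A group of 4 neighboring control spots held 11 of its 40 UMIs, or 27.5%, in 0.268% of the section's UMIs, and no other control spot had more than 1. Its Moran's I was 0.200 in the control, at the 99.8th percentile of genes. Cxcl9 had 5 of its 118 UMIs in the same 4 spots, 16.5-fold more per UMI than in the others (5.24 to 39.6).

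Of the chemokine inducers, Irf1, an interferon-induced transcription factor, had 13 UMIs in the 4 spots and was 11.5-fold higher (6.07 to 19.9). The interferon-induced genes Gbp2, Gbp6 and Irgm2 and the checkpoint ligand gene Cd274, had 9, 10, 13 and 8 UMIs there; they were chosen after their values in these spots were seen, so nothing is read from them as a group. T cell markers, Ifng and Ccl5 had 0 UMIs there and NK cell markers 2, among 38538 UMIs of all genes, and macrophage markers were at 1.43 times the level of the other spots (0.857 to 2.23). In the ring of 11 spots around the group, Cxcl10 was 17.5-fold higher (5.35 to 44.8) than in all spots outside the ring, the 4 spots included, and Cxcl9 5.42-fold higher (1.73 to 13). With 1 such group in 1 section, nothing can be said on how often it occurs.

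The upstream sequences of this gene pair are shown because both genes were counted together with Irf1 in those spots. They are the 250 bases before the gene start from RefSeq on build GRCm38.p6, both from the minus strand and given 5′ to 3′: chr5:92348890-92349139 for Cxcl10 and chr5:92328080-92328329 for Cxcl9. Capitals mark matches to the interferon-stimulated response element, searched as GAAANNGAAA, and to the NF-κB site, searched as GGGANNTTCC, on both strands.
Cxcl10: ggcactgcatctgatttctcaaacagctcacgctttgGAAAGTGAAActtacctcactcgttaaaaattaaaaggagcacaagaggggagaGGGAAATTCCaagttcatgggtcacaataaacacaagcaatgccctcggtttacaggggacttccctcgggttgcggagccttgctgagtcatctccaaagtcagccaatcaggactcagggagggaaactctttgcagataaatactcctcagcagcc
Cxcl9: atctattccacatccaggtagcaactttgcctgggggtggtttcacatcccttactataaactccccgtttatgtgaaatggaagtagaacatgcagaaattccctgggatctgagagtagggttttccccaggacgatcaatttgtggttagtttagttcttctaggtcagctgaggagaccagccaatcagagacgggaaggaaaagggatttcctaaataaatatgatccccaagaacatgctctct

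The Cxcl10 window held 1 match to each motif as searched, and they did not overlap. Other spellings of the 2 sites were not searched, so unmarked stretches may hold further sites. Cxcl9 held neither in these letters. Of 32851 windows of this length, 2.98% held the first motif and 1.21% the second. Among the 38 members with a window, 2 held the first, Cxcl10 and Cxcl14, and 5 held the second, Ccl1, Ccr3, Cxcl1, Cxcl3 and Cxcl10. Their ratios between sections had no common direction, from a log2 ratio of -2.37 for Ccl1 to 0.98 for Cxcl1. A match is a run of letters and was not tested as a bound site.

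**Figure D4:**
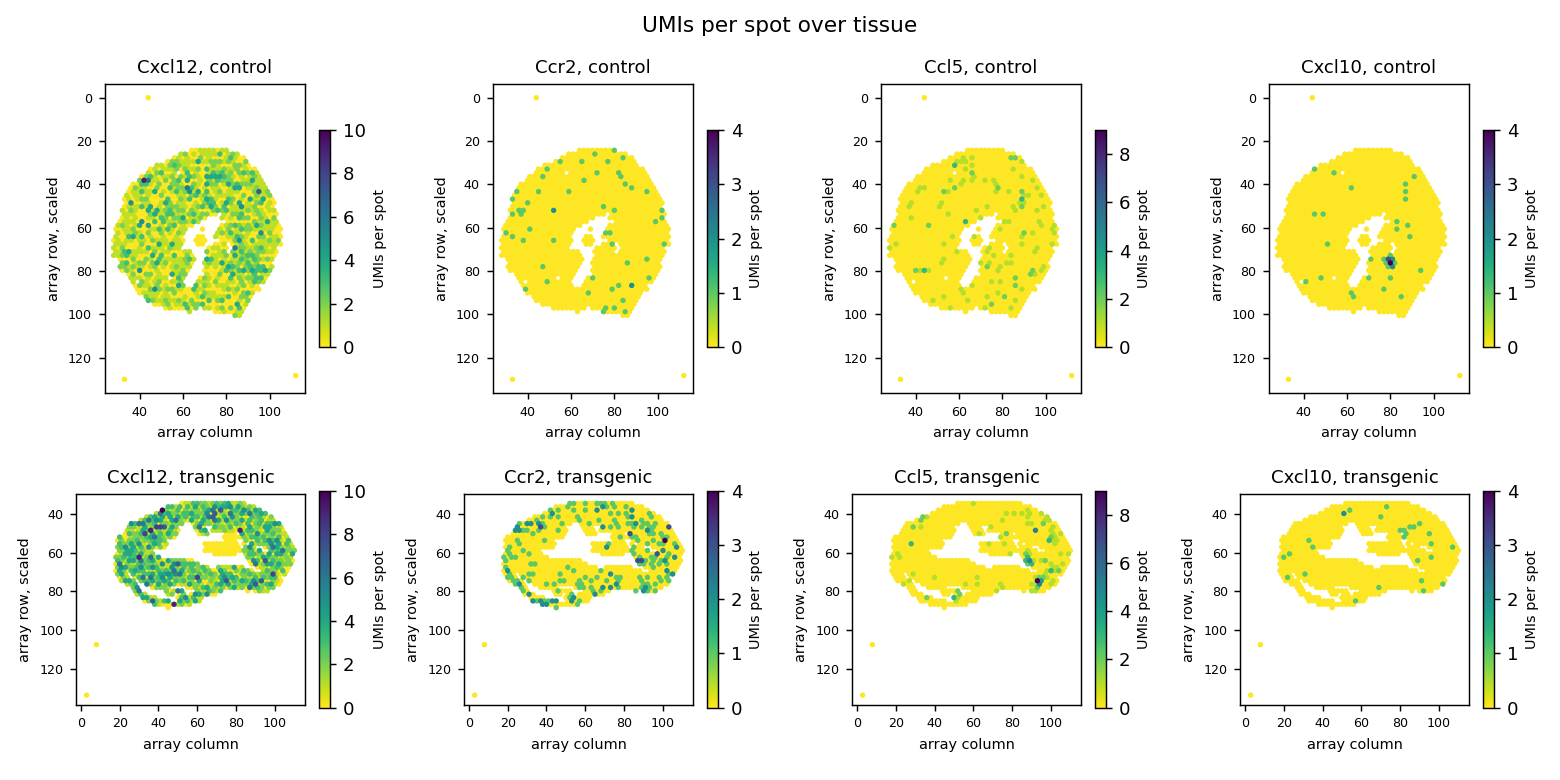
UMIs per spot of Cxcl12, Ccr2, Ccl5 and Cxcl10 on the capture array (columns across, rows down), control above and transgenic below, with 1 color scale per gene; single spots away from the tissue were called tissue in the deposited files. Cxcl12 covers both sections, transgenic Ccl5 is gathered in patches of up to 9 UMIs per spot, and control Cxcl10 has 1 group of 4 spots.

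Of the CXCL16 and CXCR6 pair, the ligand gene was clearly counted and higher in the transgenic section, and the receptor gene was near the floor. Cxcl16, a membrane-bound chemokine and lipid scavenger of macrophages and endothelium, had 174 UMIs in the control and 355 in the transgenic section. Its levels were 12.1 CPM (10.4 to 14.0) and 27.4 CPM (24.6 to 30.4), 2.26-fold higher (1.88 to 2.73). The quadrants ran from 10.5 to 13.6 CPM and from 23.3 to 32.6 CPM and did not overlap. Shares of spots were 12.7% and 31.4%, or 9.30% and 20.1% at equal depth.

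Per macrophage-marker UMI, Cxcl16 was at 1.18 times the control value, with an interval of 0.977 to 1.42. In the transgenic section it was 1.38-fold higher (1.09 to 1.72) in macrophage-rich spots and 1.39-fold higher (1.10 to 1.74) in fibroblast-rich spots. In the control it was 1.57-fold higher (1.12 to 2.17) in fibroblast-rich spots. Cxcr6, its receptor on T and NKT cells, had 11 UMIs in the control and 24 in the transgenic section, at 0.765 CPM and 1.85 CPM, 2.42-fold higher (1.14 to 5.48). Its control level was below the 95th percentile of the olfactory receptor genes, 1.11 CPM. Its quadrants overlapped, with 0.262 to 1.18 CPM in the control and 0.954 to 2.81 CPM in the transgenic section.

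Cxcl14, a homeostatic chemokine without an agreed receptor, was among the members that were lowest in the transgenic section relative to the control. It had 155 UMIs in the control and 29 in the transgenic section, or 10.8 CPM (9.15 to 12.6) and 2.24 CPM (1.5 to 3.22), 4.82-fold lower (3.22 to 7.43). Its quadrants ran from 6.22 to 16.8 CPM in the control and from 1.69 to 3.41 CPM in the transgenic section.

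In the control, Cxcl14 was 2.32-fold higher (1.66 to 3.23) in fibroblast-rich spots, at 19.1 CPM against 8.25 CPM in the other spots. It was also 1.46-fold higher (1.02 to 2.07) in monocyte-rich spots. At the tissue edge it was at 18.9 CPM against 9.47 CPM inside. The fibroblast markers themselves were at 1.56 times the control level in the transgenic section, opposite to Cxcl14.

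Of the CXCR2 ligands, which attract neutrophils, Cxcl1 had 44 UMIs in the control and 78 in the transgenic section. It was at 3.06 CPM (2.22 to 4.11) and 6.02 CPM (4.76 to 7.52), 1.97-fold higher (1.34 to 2.92), and its quadrants did not overlap. Cxcl5 had 24 and 17 UMIs with a log2 ratio of -0.35 (-1.33 to 0.61). In the control it was at 5.46 CPM at the edge and 1.05 CPM inside. The neutrophil markers with at least 20 UMIs, 5 of 7, had a median log2 ratio of 0.08. The summed level of the list was 4.59-fold higher, and this sum rests on Lcn2, which was 28.9-fold higher. Lcn2 alone held 27 of the list's 219 UMIs in the control and 703 of 905 in the transgenic section. Csf3r was 2.26-fold higher, while S100a8 was at 0.02, S100a9 at 0.08 and Mmp8 at -0.66 on the log2 scale, Mmp8 with 14 and 8 UMIs. The receptors Cxcr1 and Cxcr2 and the ligand Cxcl3 each had fewer than 20 UMIs.

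The scavenging receptors differed from each other. Ackr2, which degrades inflammatory CC chemokines, had 45 UMIs in the control and 124 in the transgenic section. Its level was 3.13 CPM (2.28 to 4.19) and 9.57 CPM (7.96 to 11.4), 3.06-fold higher (2.16 to 4.40), with quadrants of 1.31 to 4.61 CPM and 7.30 to 14.4 CPM. Within the transgenic section it was 1.61-fold higher (1.09 to 2.36) in macrophage-rich spots and 1.80-fold lower in fibroblast-rich spots. Ackr1, the chemokine-binding Duffy antigen of venules and red cells, had 22 and 20 UMIs, and its log2 ratio of 0.01 had an interval of -0.94 to 0.95.

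Members that serve lymphocytes and dendritic cells were near the floor, and 13 of these 16 had at least 20 UMIs. Ccl25, which guides T cells to thymus and intestine, had 29 and 51 UMIs and was 1.95-fold higher (1.21 to 3.19). Ccl17, made by dendritic cells and macrophages for CCR4, had 6 and 24 UMIs and was 4.44-fold higher (1.77 to 13.3). Ccl1, the CCR8 ligand, had 23 and 4 UMIs and was 5.18-fold lower (1.77 to 20.6).

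Ccr7 had 23 UMIs in the control and 36 in the transgenic section, a ratio of 1.74 whose interval reached down to 1.00. For the other 9 of these 13, Ccr6, Ccr8, Ccr9, Ccr10, Ccl20, Ccl28, Cxcr5, Xcl1 and Xcr1, the log2 ratio lay between -0.85 and 0.57, and each interval included 0. The eosinophil receptor gene Ccr3 had 14 and 13 UMIs.

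The 15 members below 20 UMIs were Ccl4, Ccl11, Ccl22, Ccl24, Ccl26, Ccr1, Ccr1l1, Ccr4, Cxcl3, Cxcl13, Cxcl15, Cxcl17, Cxcr1, Cxcr2 and Cxcr3. None of them passed the 95th percentile of the olfactory receptor genes in either section. Cxcl15, a lung chemokine, had 0 UMIs in both sections. The exact 95% interval allows a level of up to 0.257 CPM in the control section and 0.285 CPM in the transgenic one. For shares, the exact interval reaches up to 0.293% of control spots and 0.398% of transgenic spots. Ccr1l1 had 6 UMIs in the control and 0 in the transgenic section, and Cxcl3 had 0 and 1.

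Across all members with at least 100 UMIs in a section, few levels in the control went with cell type markers. Of 81 pairs of a gene and a marker list in the control, 5 had an interval that excluded an equal level, all of them higher in the marker-rich spots. Of 110 pairs in the transgenic section, 31 did, with 22 higher and 9 lower. The transgenic section had 1 more gene and 2 more lists that could be used, and the 2 numbers were not tested against each other. Of the 9 lower pairs, 6 were in cardiomyocyte-rich spots, for Ccr2, Ccl5, Ccl9, Cx3cr1, Cxcl16 and Cxcr4.

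**Figure D5:**
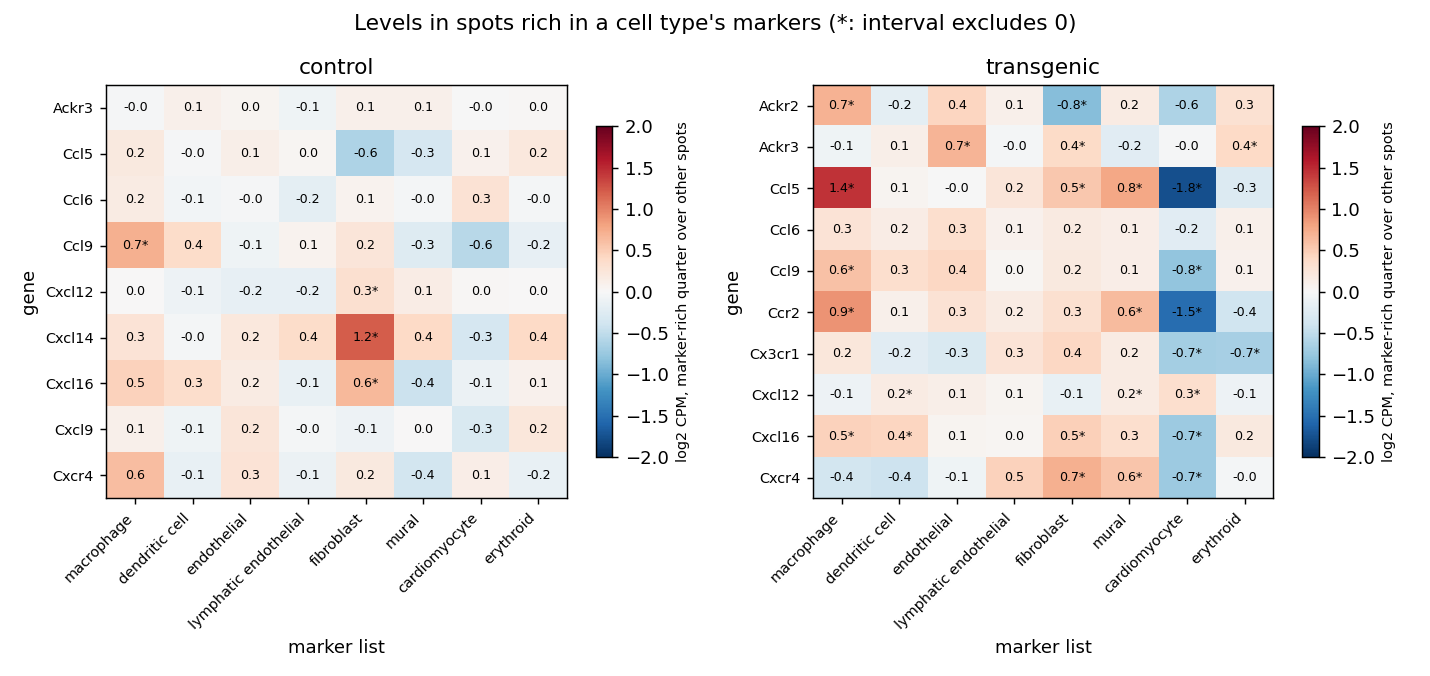
Log2 CPM in the 25% of spots richest in a marker list over the other spots, for members with at least 100 UMIs in the section, control left and transgenic right, with asterisks where the interval excludes 0. The control has few asterisks, with Cxcl14 in fibroblast-rich spots the highest (1.21), and the transgenic cardiomyocyte column is negative for Ccl5 (-1.76) and Ccr2 (-1.52).

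Genes that work with chemokines were taken as 3 lists. Of 17 genes for receptor signaling partners with at least 20 UMIs, 5 were at least 2-fold higher and 0 at least 2-fold lower, against 13.7% and 5.61% of all genes, and their median log2 ratio was 0.82 against 0.20 over all genes. The highest was Ptk2b, a kinase downstream of chemokine receptors, at 3.55 CPM and 19.7 CPM, and the lowest was Grk2, a receptor kinase, with a log2 ratio of -0.08. Gnai2, the G protein subunit that these receptors use in leukocytes, was at 342 CPM and 603 CPM.

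Of 12 genes for chemokine-like and processing proteins, 4 were at least 2-fold higher and 0 at least 2-fold lower, against the same 13.7% and 5.61% of all genes, with a median of 0.48 against 0.20. Ackr4, which scavenges CCL19, CCL21 and CCL25, was highest at 6.89 CPM and 31.6 CPM, and Ccrl2, which binds chemerin without signaling, had a log2 ratio of -0.05. The platelet chemokines Pf4 and Ppbp, which the naming rule does not hold, had 912 and 942 UMIs and 49 and 51 UMIs, with log2 ratios of 0.20 and 0.21. Mif and its receptor gene Cd74 were 2.26-fold and 2.09-fold higher.

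Of 15 inducers of chemokine genes with at least 20 UMIs, 1 was at least 2-fold higher and 1 at least 2-fold lower, where all genes gave 13.7% and 5.61%, and the median was 0.15 against 0.20. The highest was Nfkbia, the NF-κB inhibitor, at 56.1 CPM and 120 CPM. The lowest was Tnf, with 31 and 13 UMIs. Irf1 was 1.48-fold lower in the transgenic section, with 434 and 265 UMIs.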

How the data were processed

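Per the file headers, the authors made the deposited UMI counts per gene and spot with Space Ranger 2.0.0, on the genome builds their processing notes name, GRCm39 and mm39. The deposited spatial score, Moran's I, was read as given. Only spots called tissue were used. Counts were summed per section and divided by the section total (CPM), and a log2 ratio was given for genes with at least 20 UMIs over both sections, with an exact conditional binomial 95% interval. Levels have exact Poisson intervals and shares of spots exact binomial (Clopper-Pearson) ones. In a ratio, a count of 0 was set to 3 for a bound. Probe yield differs between genes, so levels were compared between sections or spots and not between genes. Expected shares at equal depth came from the hypergeometric distribution. Marker-rich spots were the 25% highest in a list's CPM, used for members with at least 100 UMIs and lists found in at least that share of spots. The per-marker ratios, the groups of spots with at least 2 UMIs of Ccl5 or Cxcl10, the olfactory receptor reference and the promoter windows were chosen after the data were seen. Every member with at least 20 UMIs is named, except 1 that is counted but not reported here, and of each pathway list the highest and lowest gene. The members and lists were chosen with earlier results of these data known. Alternatives used factors from edgeR 4.0.16 (TMM) and DESeq2 1.42.0. The ratio and its interval were tested on simulated data. Python 3.11.15, scipy 1.17.1 and R 4.3.3 were used.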

Additional observations from a re-analysis of the deposited data

How the results depend on the processing

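The count of 9 members higher by at least 2-fold was 3 when only the 9 members with at least 200 UMIs were kept, and 8 to 11 under the other 10 alternatives. The 4 that were at least 2-fold lower became 7 in the 50% of spots highest in cardiomyocyte markers, 2 with 1 CPM added to both levels, 7 with members of at least 1 UMI and 0 with members of at least 200 UMIs. The share of all genes under these alternatives is not given here. The counts therefore show only how the calls of members moved, not whether members differed from all genes. No member at least 2-fold higher or lower changed direction under any of the 9 alternatives that recompute it. TMM factors moved the median of all genes from 0.20 to 0.05 and that of the members from 0.16 to 0.00. Ccl5 in fibroblast-rich transgenic spots went from 0.53 to -0.22 on the log2 scale when the richest 10% of spots were used; the cause was not tested. T cell, NK cell, B cell, mast cell and platelet markers were too sparse for marker-rich spots in both sections. Most members had under 100 UMIs, so depth limits their ratios. No paired analysis was possible because each genotype had 1 section.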
